A study of Mus musculus with 2 samples.

Results

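Peaks of the coactivator p300 were described at the loci of 4 regulators of the cardiac lineage, Nkx2-5, Isl1, Mef2c and Myocd, in mouse embryos. The members were taken by position: every listed peak whose midpoint lay in a window of 300 kb at Nkx2-5, 1000 kb at Isl1, 600 kb at Mef2c or 400 kb at Myocd, on the mm9 build. This gave 17 of the 6383 listed peaks, of which 7 came from the heart list of 3597 and 10 from the midbrain list of 2786. The heart list held 2 peaks at Nkx2-5, 2 at Mef2c, 3 at Myocd and none at Isl1. The midbrain list held 8 at Mef2c, 1 at Nkx2-5, 1 at Isl1 and none at Myocd. The study comprised 1 library from heart and 1 from midbrain, both immunoprecipitated with an antibody against p300. Both came from CD-1 embryos of both sexes at embryonic day 11.5, each pooled from about 150 embryos, and no treatment or genotype is given. The 2 libraries share their protocol text; it lists forebrain, limb and midbrain as the tissues taken, and how the hearts were dissected is not given in the sources used here. With 1 library per tissue, there was no replicate and no test between tissues, and tissue, library, depth and any difference in alignment cannot be told apart.

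p300 is a histone acetyltransferase that transcription factors recruit to DNA, and it is found at many active enhancers, so its position is widely used to locate them. Nkx2-5 is a homeodomain transcription factor of cardiac progenitors and heart muscle. Isl1 is a LIM-homeodomain factor known from progenitors of the second heart field and also from motor neurons. Mef2c is a MADS-box factor of muscle that also acts in neurons, and Myocd (myocardin) is a coactivator of serum response factor in cardiac and smooth muscle. By gene order in RefSeq, Nkx2-5 lies between Bnip1 and Kifc5b, Isl1 between Pelo and Parp8, Mef2c between Cetn3 and Tmem161b, and Myocd between Arhgap44 and Map2k4. That annotation (GRCm38.p6) is not of the build of the files, so no peak was assigned to an exon, intron, UTR or promoter, and a window's gene name is used as the name of a place, not of a target.

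The promoters of 3 of the 4 members were found in the RefSeq table. They are shown because they are the regulatory sequence of the genes after which the windows are named. Each is the 250 bases before the annotated start, 5′ to 3′ on the strand of the gene, which is the minus strand for both genes printed. Reads could not be placed on them, since they are on GRCm38.p6. Capitals mark letters that match, on either strand, one of the motifs searched other than the E-box.
Nkx2-5: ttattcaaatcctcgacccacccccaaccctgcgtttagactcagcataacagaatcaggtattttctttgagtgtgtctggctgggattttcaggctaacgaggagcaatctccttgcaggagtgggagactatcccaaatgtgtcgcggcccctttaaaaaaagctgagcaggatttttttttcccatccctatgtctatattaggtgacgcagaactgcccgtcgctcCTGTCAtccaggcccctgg
Isl1: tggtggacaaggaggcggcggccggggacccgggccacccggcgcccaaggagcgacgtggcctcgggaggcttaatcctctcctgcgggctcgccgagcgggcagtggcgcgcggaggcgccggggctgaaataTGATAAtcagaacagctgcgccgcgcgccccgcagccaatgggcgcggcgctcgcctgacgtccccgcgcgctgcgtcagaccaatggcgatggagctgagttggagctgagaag
The Nkx2-5 promoter held 1 match to the MEIS motif TGACAG, here on the opposite strand, which 15.9% of the 32851 promoters of the table held, and had a GC content of 49.2%. The Isl1 promoter held 1 match to the GATA motif TGATAA, which 7.94% of promoters held, and had a GC content of 71.2% against a median of 52.4% over the table. Each of the 3 Mef2c starts in the table had 1 match to the NKX2 motif AAGTG, which 40.7% of promoters held, and 1 of the 3 also had a TEAD match (CATTCC, 12.6%). None of these 5 promoters held AGATAA (9.99% of promoters), the T-box motif GGTGTGA (3.33%), the MEF2 core (0.508%) or the CArG box of serum response factor (1.47%). The E-box CANNTG, which can overlap other motifs, was in 66.2% of promoters and in 4 of these 5, those of Nkx2-5, Isl1 and 2 of the Mef2c starts. These are matches of letters in short windows and no more.

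There were 1303861 aligned heart reads, and 4.50 times as many, 5869671, from midbrain. A single heart read was therefore worth 0.767 rpm (reads per 1000000 aligned reads) and a single midbrain read 0.170 rpm, and a count of 0 allows up to 2.30 rpm (3 reads) for heart and 0.511 rpm for midbrain. Ratios are of rpm, and the range in parentheses after a ratio is its exact conditional binomial 95% interval. Such an interval covers counting error only and is not adjusted for the number of peaks. A peak is called on the side of a library where the whole interval lies on that side of 1. Because a peak was listed from the same reads, the ratio at a library's own peak describes it and does not test it. Coverage is the number of reads, lengthened to 300 bp, that lie over a position, and it is not scaled for depth.

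Of the heart peaks, 7 of 7 were on the heart side, against 90.0% of the whole heart list. Of the midbrain peaks, 4 of 10 were on the midbrain side, against 21.6% of the whole midbrain list. A call needs enough reads. At the Mef2c peak of rank 823, with 18 midbrain reads and no heart read, the heart over midbrain interval still reached 1.02. Midbrain peaks with 18 reads or fewer could therefore not be called at any heart count. These shares thus also follow read number and do not by themselves compare tissue specificity. No peak of the loci overlapped a peak of the other list. The heart peaks were low and close to the ordinary peak of their list: they held 5 to 8 heart reads (median 5, against 6 over the list), and their highest coverage had a median of 4, as in the whole list. The midbrain peaks held 10 to 141 midbrain reads (median 33, against 17 over the list) and had ranks from 7 to 2748 in the deposited order.

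**Figure D1:**
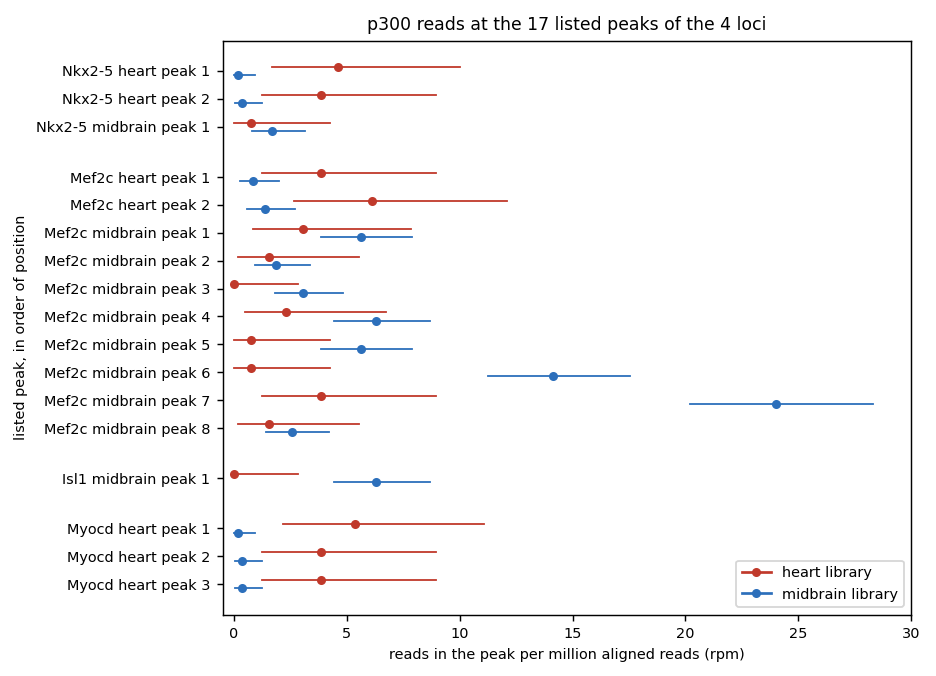
Heart and midbrain rpm (horizontal axis) at each of the 17 listed peaks, in order along each locus, with bars giving the 95% counting interval of each library. At the 7 heart peaks the heart values run from 3.83 to 6.14 rpm and lie above the midbrain values, while the Mef2c peak of rank 7 reaches 24.02 rpm in the midbrain.

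At Nkx2-5, the heart library had both of its peaks in the later part of the window, in an elevated surrounding. Elsewhere in the window, 2 unlisted places reached a heart coverage of 6, higher than at either listed heart peak. The better ranked of the 2 listed heart peaks, chr17:27005370-27006027 (658 bp, rank 1342), held 6 heart reads (4.60 rpm), 3 on each strand, and 1 midbrain read (0.170 rpm). The heart level was 27.0 times the midbrain level (3.28 to 1242), and the coverage reached 5 for heart and 1 for midbrain. The width of that interval comes from the single midbrain read. The heart reads there were 11.4 times as dense as in the flanks, which are the 5 to 10 kb on each side, and the midbrain reads 1.52 times.

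The other Nkx2-5 heart peak lay 17171 bp further on, at chr17:27023199-27023801 (603 bp, rank 2729). It held 5 heart reads (3.83 rpm) and 2 midbrain reads (0.341 rpm), a ratio of 11.3 (1.84 to 118), and a highest heart coverage of 3. All 5 of its heart reads were on the minus strand. When the libraries were scaled to the reads of the window outside listed peaks, in place of all aligned reads, the ratio was 5.21 (0.853 to 54.7) and the peak was no longer on the heart side. Summed over both peaks, 11 heart and 3 midbrain reads gave a ratio of 16.5 (4.36 to 92.1). Of tiles of 300 kb over the genome, 9.74% held at least 2 heart peaks, so a pair in this length is not rare.

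The single midbrain peak of the Nkx2-5 window, chr17:27086241-27086855 (615 bp, rank 2748), stood near the end of its list. It held 10 midbrain reads (1.70 rpm) and 1 heart read (0.767 rpm), and the midbrain level was 2.22 times the heart level (0.316 to 96.4). This peak was not called on either side. A share of 20.4% of tiles held at least 1 midbrain peak.

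**Figure D2:**
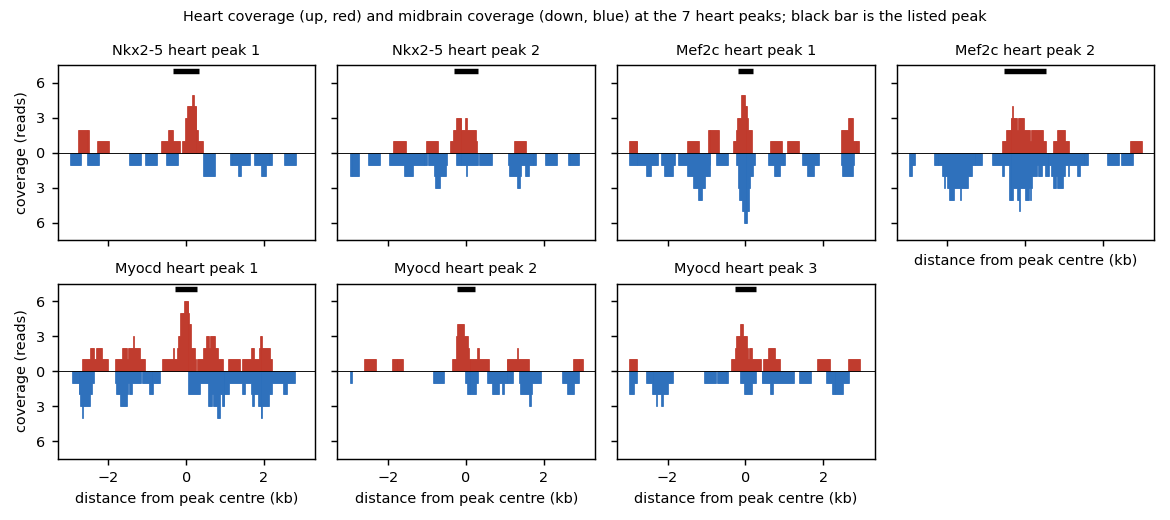
Deposited coverage (reads lengthened to 300 bp, not scaled) of heart (upwards) and midbrain (downwards) around the 7 heart peaks, against distance from the peak centre in kb, with 1 panel for each peak. The heart coverage reaches 3 to 6 at the peaks, and at both Mef2c peaks the midbrain coverage reaches 5 or 6 at the same place.

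The excess of heart reads at Nkx2-5 was not limited to the listed peaks. The window held 307 heart reads (235 rpm) and 628 midbrain reads (107 rpm), a ratio of 2.20 (1.91 to 2.53), and outside the listed peaks the ratio was 2.16 (1.87 to 2.48). Of 8378 tiles of 300 kb, 0.251% had a ratio at least as high, and their median was 0.923. The 10 neighbouring windows of the same length, 5 on each side, also lay above that median, at 1.28 to 2.13. A ratio above the median thus extended over the 3.3 Mb examined and was not particular to the window of Nkx2-5. The window was the highest of the 11, with the one just before it at 2.13 (1.86 to 2.45). The lowest neighbour lay below the 95th percentile of tiles, 1.62. The 2 heart peaks held 3.58% of the heart reads of the window.

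In bins of 10 kb, 10 of the 30 bins at Nkx2-5 (33.3%) were on the heart side, against 4.73% of the 253027 bins of the genome, and 9 of these 10 held no listed peak. None was on the midbrain side, against 2.6% of the bins of the genome. The bins held a median of 8.5 heart reads, against 4 over the genome, and 19 midbrain reads, against 23. The richest stretch, chosen after its values were seen, was chr17:26970001-26990000, 20 kb without a listed peak. It held 51 heart reads (39.1 rpm) and 31 midbrain reads (5.28 rpm), a ratio of 7.41 (4.65 to 11.97). This stretch carried 16.6% of the heart reads of the window in 6.67% of its length. Its highest heart coverage was 4, the same as the median of the listed heart peaks.

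At Myocd, the heart library had 3 peaks and the midbrain library none. The strongest was chr11:65022904-65023454 (551 bp, rank 528), with 7 heart reads (5.37 rpm) and 1 midbrain read (0.170 rpm). The heart level was 31.5 times the midbrain level (4.05 to 1420), the coverage reached 6 in the heart, and heart reads were 11.0 times as dense as in the flanks. This was the best ranked of the 7 heart peaks at the loci. The next peak, 5210 bp further on at chr11:65028665-65029122, and the last, chr11:65235331-65235871, had ranks of 1898 and 2033. Each of these held 5 heart reads (3.83 rpm) and 2 midbrain reads (0.341 rpm), a ratio of 11.3 (1.84 to 118), and reached a heart coverage of 4. The flanks of the last held 3 heart reads, near the genome median of 4 for a bin of 10 kb, and those of the middle one held 17.

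Over the 3 Myocd peaks, 17 heart and 5 midbrain reads gave a ratio of 15.3 (5.42 to 53.1). At least 3 heart peaks were found in 6.18% of tiles of 400 kb, and 74.2% of them held no midbrain peak, so the empty midbrain list at Myocd is the ordinary case. The whole window held 369 heart reads (283 rpm) and 990 midbrain reads (169 rpm), a ratio of 1.68 (1.48 to 1.89), and 1.61 (1.42 to 1.82) outside the peaks. A ratio at least as high occurred in 3.53% of tiles. The 10 neighbouring windows at Myocd lay at 0.792 to 1.16, and thus around the tile median of 0.933, whereas those at Nkx2-5 all lay above their median. The difference between these loci was not tested.

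Of the 40 bins of 10 kb at Myocd, 11 (27.5%) were on the heart side and none on the midbrain side. Over the genome these shares were 4.73% and 2.6%. Of the 11 bins, 9 held no listed peak. The bin with the most heart reads, chr11:65020001-65030000, held the first pair of peaks. It carried 34 heart and 32 midbrain reads, a ratio of 4.78 (2.86 to 8.01), and 0.0585% of the bins of the genome held as many heart reads. A bin without a listed peak, chr11:65080001-65090000, held 23 heart and 33 midbrain reads, a ratio of 3.14 (1.76 to 5.51). As at Nkx2-5, part of the heart excess at Myocd therefore lay where no peak was listed.

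**Figure D3:**
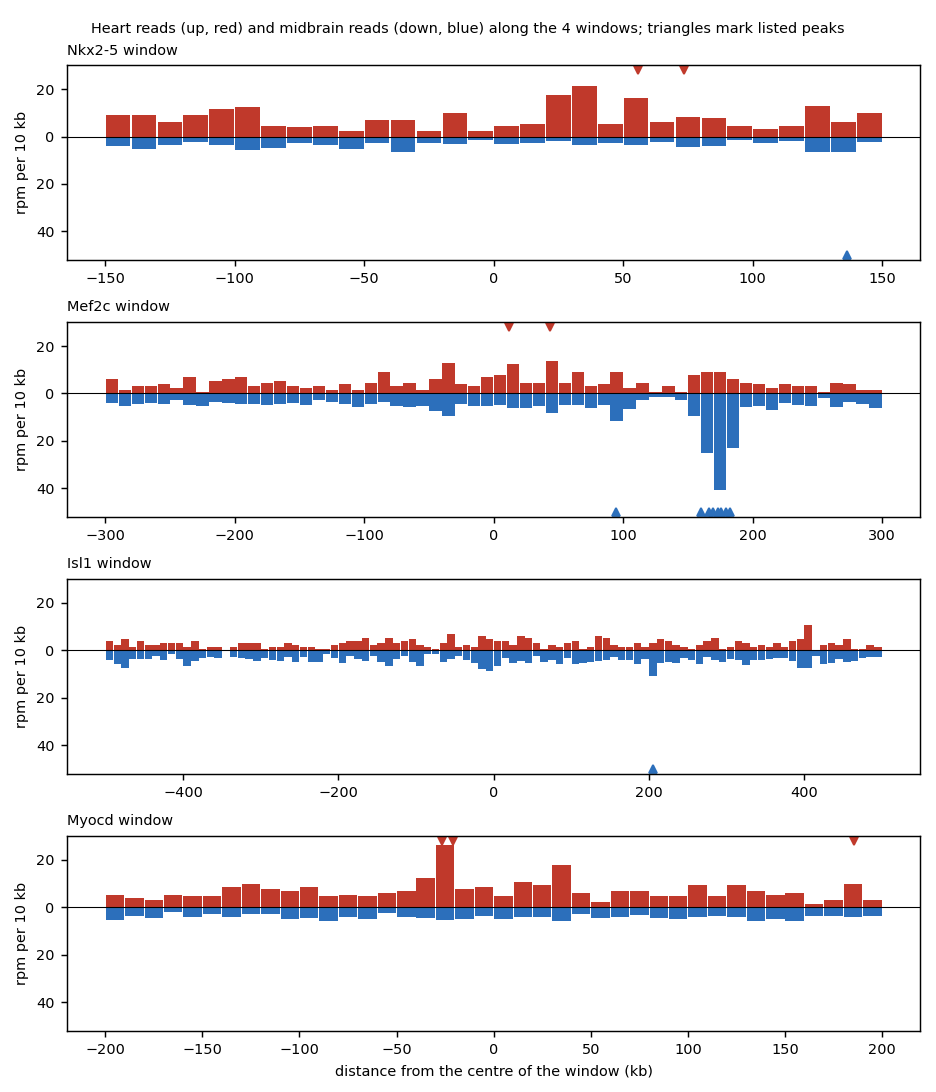
Heart rpm (upwards) and midbrain rpm (downwards) in bins of 10 kb along the 4 windows, against distance from the centre of each window in kb, with listed peaks marked. Heart bars are high along the windows of Nkx2-5 and Myocd, and the midbrain bars reach their greatest depth at the run of Mef2c midbrain peaks.

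At Mef2c, both libraries had peaks, at separate places in the window, and the heart peaks were the 2 of the 7 at which the midbrain library also held several reads. The peak with the most heart reads, chr13:83742808-83743869 (1062 bp, rank 1292), held 8 heart reads (6.14 rpm) and 8 midbrain reads (1.36 rpm). The other, chr13:83711288-83711686 (399 bp, rank 1804), held 5 heart reads (3.83 rpm) and 5 midbrain reads (0.852 rpm). Equal counts in libraries of unequal depth gave a ratio of 4.50 at each, with intervals of 1.47 to 13.8 and 1.04 to 19.6. With reads moved by 150 bp, the ratio at the second of these was 3.75 (0.906 to 14.8) and it was no longer on the heart side.

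The midbrain reads at these places were denser than around them, 2.09 and 5.01 times the flanks, compared with 0.577 to 1.75 times at the 5 heart peaks of Nkx2-5 and Myocd. Midbrain coverage reached 5 at the first and 6 at the second, but neither place is in the midbrain list. At the second, all 5 midbrain reads were on the plus strand and 4 of the 5 heart reads on the minus strand. Together the Mef2c heart peaks gave a ratio of 4.50 (1.92 to 10.5), whose interval overlaps those of Nkx2-5 and Myocd, and the difference between loci was not tested. A total of 20.8% of tiles of 600 kb held at least 2 heart peaks.

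By reads, the largest of the 17 peaks were midbrain peaks of Mef2c. Of its 8 midbrain peaks, 7 formed a run over 22.9 kb, chr13:83859753-83882653, and covered 51.4% of it, with gaps of 48 to 5761 bp. The peak of rank 7 in the whole midbrain list, chr13:83877580-83881865 (4286 bp), held 141 midbrain reads (24.02 rpm) and 5 heart reads (3.83 rpm), so the midbrain level was 6.26 times the heart level (2.62 to 19.6). Next to it, the peak of rank 53, chr13:83874216-83877531 (3316 bp), held 83 midbrain reads (14.1 rpm) and 1 heart read, a ratio of 18.4 (3.22 to 737). The next neighbour, of rank 370, was called on the midbrain side with 33 reads against 1, a ratio of 7.33 (1.23 to 298). That call was lost when reads were not moved (heart over midbrain 0.273, interval 0.0317 to 1.07).

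The other Mef2c midbrain peaks were not called on either side, and whether this depends on the depth of the heart library was not tested. The peak of rank 127 reached the highest coverage of all, 22, and held 37 midbrain and 3 heart reads, a ratio of 2.74 (0.867 to 13.9). The peak of rank 473, 64171 bp before the run, held 33 midbrain and 4 heart reads, a ratio of 1.83 (0.652 to 7.12). The remaining 3 held 11 to 18 midbrain reads and 0 to 2 heart reads. Over the whole run, the peaks held 338 midbrain and 14 heart reads, and the midbrain level was 5.36 times the heart level (3.15 to 9.92).

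**Figure D4:**
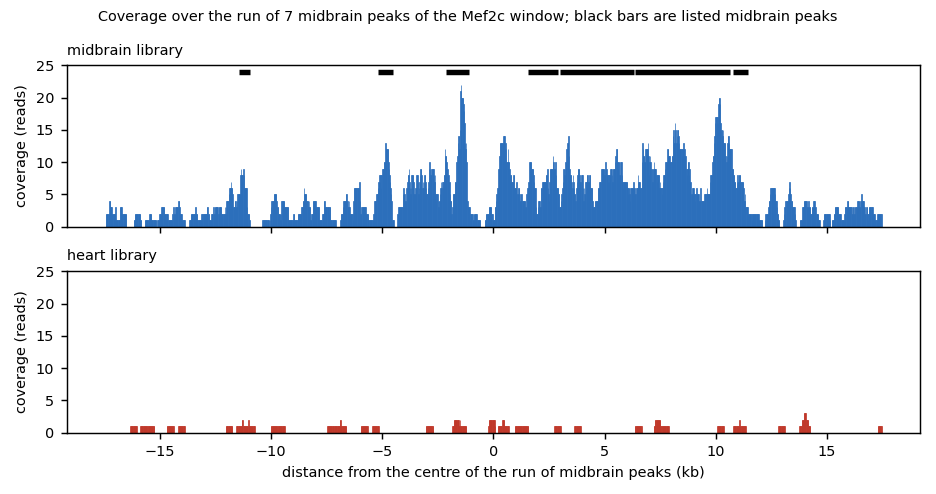
Deposited coverage of both libraries (reads lengthened to 300 bp, not scaled) along the run of 7 midbrain peaks at Mef2c, against distance from the centre of the run in kb, with listed peaks marked. Midbrain coverage reaches 22 and stays above 0 across most of the run, while the heart coverage is low throughout.

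A density of 8 midbrain peaks in 600 kb was rare: 0.667% of tiles held as many. Joining peaks less than 1 kb apart left 5 in place of 8, and the window edge also divides a richer region, since the next midbrain peak, chr13:84005470-84006618, lay 5.47 kb past it. Over the whole Mef2c window, 365 heart reads (280 rpm) and 2185 midbrain reads (372 rpm) gave a heart over midbrain ratio of 0.752 (0.671 to 0.841), which 27.3% of tiles matched or went below. The midbrain peaks held 16.98% of the midbrain reads of the window, and outside all listed peaks the ratio was 0.835 (0.741 to 0.939). Of the 60 bins of 10 kb, 5 (8.33%) were on the midbrain side, against 2.6% of the bins of the genome. On the heart side were 2 (3.33%), against 4.73%. The bin with the most midbrain reads held 238 of them and 12 heart reads, and 0.00593% of the bins of the genome held as many.

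At Isl1, 1 peak was listed in the whole window of 1000 kb, and it came from the midbrain. This peak, chr13:117304778-117306012 (1235 bp, rank 231), held 37 midbrain reads (6.30 rpm) and no heart read, and the coverage reached 14 for midbrain and 0 for heart. The midbrain level was 2.74 times the heart floor of 3 reads. That value is not a lower limit of the ratio, whose counting interval began at 2.12. Midbrain reads were 9.36 times as dense as in its flanks, the highest such value among the 10 midbrain peaks. The Mef2c peak of rank 473 had 7.72 and the Nkx2-5 midbrain peak 4.17. For the peaks of the Mef2c run, the flanks fell partly within the run itself, so their values are not comparable. The nearest heart peak lay 1190010 bp away.

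The absence of a heart peak at Isl1 matched 47.5% of tiles of this length, and 47.0% held at least 1 midbrain peak. The window held 363 heart reads (278 rpm) and 2514 midbrain reads (428 rpm), a ratio of 0.650 (0.581 to 0.726), and 0.660 (0.589 to 0.737) outside the peak. A ratio as low or lower occurred in 9.92% of tiles. The 8 neighbouring windows that could be measured lay higher, at 0.807 to 1.37. Of the 100 bins of 10 kb, 6 (6%) were on the midbrain side and none on the heart side, against 2.6% and 4.73% of the bins of the genome. The bin with the most heart reads, chr13:117500001-117510000, held 14 heart and 43 midbrain reads, a ratio of 1.47 (0.741 to 2.73). Heart coverage did not rise above 3 anywhere in the window, a value that 97.7% of the listed heart peaks reached. The lack of a listed heart peak at Isl1 does not show that p300 was absent there in the heart.

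**Figure D5:**
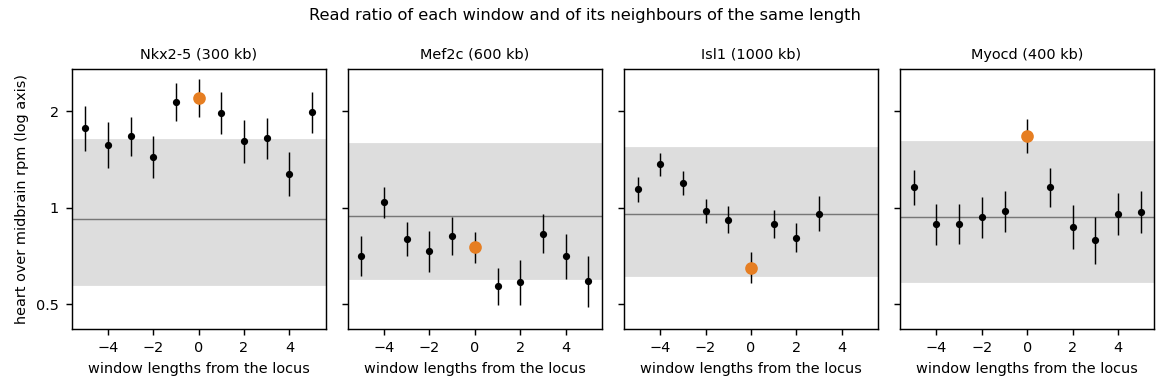
Heart over midbrain ratio of rpm (log axis), with 95% counting intervals, for each of the 4 windows (large points) and up to 5 neighbouring windows of the same length on each side; the line and band are the median and the 5th to 95th percentile of tiles. Every window around Nkx2-5 lies at 1.28 or above, Myocd stands at 1.68 between neighbours of 0.792 to 1.16, and Isl1 at 0.650 is below its neighbours.

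Pooled over the loci, the peaks were set beside the lists as wholes. All 7 heart peaks together held 41 heart and 21 midbrain reads, a ratio of 8.79 (5.08 to 15.7), and the 3597 peaks of the heart list gave 7.96 (7.79 to 8.13). The 10 midbrain peaks held 418 midbrain and 19 heart reads, and the midbrain level was 4.89 times the heart level (3.09 to 8.20), against 3.39 for the 2786 peaks of the midbrain list. Both pooled intervals include the value of the whole list, but they do not describe each locus. Mef2c gave 371 of the 418 midbrain reads. The heart value joins ratios of 16.5 at Nkx2-5 and 15.3 at Myocd with 4.50 at Mef2c. In width, the Mef2c midbrain peaks of ranks 7 and 53 lay at the far end of their list, where 0.0718% and 0.215% of peaks were as wide.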

How the data were processed

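Per the labels' protocols, ChIP DNA selected at 300 to 500 bp was read as 36 bp reads. The authors deposited 1 line per aligned read, which gave the read counts; nearly every read was lengthened to 300 bp. The deposited coverage signal counts lengthened unique reads at steps of 25 bp, per the file headers, and is not scaled. The deposited peak lists hold a position and a rank. The build is mm9, per the submitters' processing notes. The word blat stands in the heart track names only; the midbrain aligner, any control, and the caller and thresholds behind the peaks are not given in the sources used here. The depth of each library and its precision are in the report.

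Reads were placed by their 5′ end, moved by 23 bp (heart) or 35 bp (midbrain). These are the whole part of 0.5 times the strand offsets of 46 and 71 bp, searched between 46 and 500 bp. The heart offset lies at the lower limit of the search, so it need not be a maximum. The profiles were flat, with 48.6 pairs per bp at the offset and 41.3 at 150 bp in the heart. Intervals are 95% exact conditional binomial and were tested on simulated data. The simulated counts were not selected as listed peaks are. Their midbrain means all lay above the midbrain counts at the heart peaks of the loci, so such sparse counts were not covered. Tiles with under 20% of the median midbrain reads were left out. The bins of the genome are those with at least 1 read in either library. All peaks of the windows are accounted for; those named by rule are the peak with most reads and the best ranked in each list and window, and others were named after their values were seen. Alternatives were no shift, 150 bp, local scaling, the top 1000 ranks, joined peaks and other windows. The members and lists were chosen with earlier results of these data known. Items that needed an mm9 genome or annotation were not analysed here. The tools were scipy 1.17.1, numpy 2.4.6, matplotlib 3.10.9, pandas 2.3.3 and Python 3.11.15.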

Additional observations from a re-analysis of the deposited data

Results flagged for a closer look

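Reads within 300 bp of the highest unlisted coverage of a window exceeded the 3 that a count of 0 allows at the places given here. Midbrain places were sought from a coverage of 6 upwards, so each of them exceeded 3 reads by construction. No control library was used here. In the heart, 2 places in the Nkx2-5 window tied at a coverage of 6, near chr17:26813600 and chr17:26853025. Each held 6 heart and 3 midbrain reads, a ratio of 9.004 (1.92 to 55.6). A coverage of 6 was reached by 12.1% of the listed heart peaks and at 477 unlisted places in the genome. In the midbrain, the place at Mef2c, chr13:83871650, held 22 midbrain and 2 heart reads at a coverage of 14, 1.11 kb from a listed peak, and 131 unlisted places in the genome were as high. The midbrain place at Isl1 held 11 midbrain reads at a coverage of 9, which 1054 unlisted places reached. At Myocd, 9 midbrain reads gave a coverage of 7, which 7213 unlisted places reached. At Nkx2-5, the highest unlisted midbrain coverage was 6, a value reached at 24183 unlisted places; it occurred with 7 midbrain reads at chr17:26918800 and with 6 near chr17:27079075. At every midbrain place the interval of the heart over midbrain ratio included 1, as at Mef2c (0.409, 0.0467 to 1.66) and Isl1 (0 to 1.79). All of these places were picked by the coverage of their own library, so their ratios describe them and do not test them. Why these places are not listed was not tested.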

How the results depend on the processing

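Of 80 alternatives, 62 were planned and 18 were chosen after seeing the data. A count was taken as kept within 1.5-fold, and a ratio or percentage within its interval. By this rule 75 kept their result, 5 moved a count and 0 reversed a direction. Some kept counts still changed. Ranks 1 to 1000 left 6 of the 8 Mef2c midbrain peaks. Heart peaks on the heart side fell from 7 to 6 with 150 bp or local scaling. Midbrain peaks on the midbrain side fell from 4 to 3 with no shift. All 37 alternatives to a ratio stayed within its interval, but with few reads these intervals are wide, so this is a weak check. With local scaling the ratio at heart peaks went from 16.5 to 7.64 at Nkx2-5 and from 15.3 to 9.51 at Myocd. At Mef2c it rose from 4.50 to 5.39. Moving reads by 150 bp gave 24.8 at Nkx2-5, 12.8 at Myocd and 3.66 at Mef2c. Keeping ranks 1 to 1000 left 0 heart peaks at Nkx2-5, 0 at Mef2c and 1 at Myocd, and 0 midbrain peaks at Nkx2-5. With that limit, no ratio at heart peaks could be given for Nkx2-5 or Mef2c. Joining peaks less than 1 kb apart left 5 midbrain peaks at Mef2c, and windows longer by 50 kb on each side gave 11. No paired analysis was possible because each tissue has 1 library. At the 2 of 10 midbrain peaks with 0 heart reads, a heart level of up to 2.30 rpm remains possible. Whether heart depth accounts for the midbrain peaks not called on either side was not tested.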

Other observations

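Places with a heart coverage of at least 3 outside the listed peaks were 60 per Mb at Nkx2-5, 35 per Mb at Myocd, 18.3 per Mb at Mef2c and 4 per Mb at Isl1, against 12.4 per Mb over the genome. Places with a midbrain coverage of at least 6 outside the listed peaks were 33.3 per Mb at Mef2c, 11 at Isl1, 10 at Nkx2-5 and 5 at Myocd, against 9.16 over the genome. In the order given, the rates rest on 18, 14, 11 and 4 places in the heart and on 20, 11, 3 and 2 in the midbrain. No order of these rates was tested. The order of the loci in the heart thus differed from that in the midbrain, with Nkx2-5 and Myocd highest in the heart and Mef2c highest in the midbrain. These places share the depth of their library, and the values have no replicate.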
